A study of Mus musculus with 8 samples.

Results

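Txndc5 and 8 further genes of disulfide bond formation in the endoplasmic reticulum (ER) were examined, namely P4hb, Pdia3, Pdia4, Pdia5, Pdia6, Ero1l, Erp29 and Tmx1. These 9 genes were chosen by name after the differences between moR-21 mimetic and scrambled control on these same arrays were known, with Txndc5 selected on its large fall. Their differences are therefore given as a description, with replicate errors and without p-values. Every probe whose symbol on the array was one of the 9 names was taken, which gave 10 of the 25697 probes and 8 of the 9 genes. Of these 8 genes, 6 had a probe above background and could be compared, out of 8727 genes on the array that could. No probe carries the symbol Tmx1, but RefSeq lists Txndc1 as an older symbol of that gene, and the Txndc1 probe is given for it, which makes 7 measured genes.

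The arrays were Illumina mouse expression BeadChips, on which each probe gives a brightness for 1 transcript. RNA came from primary aortic smooth muscle cells grown out of explants of several mouse aortas, with the adventitia cleaned off; the donors' sex and age, and a strain named for these cells, are not given in the sources used here. All cells were moved to charcoal-treated serum before use. They were transfected with RNAiMAX and either a scrambled control oligonucleotide or the moR-21 mimetic, both at 5 nM, and RNA was taken at 48 h. There were 3 control samples and 3 moR-21 samples, of which control 1 and moR-21 sample 3 had a pair of arrays, A and B, so that 8 arrays stood for 6 samples. The labels do not say whether the samples of a group came from separate cultures, so the errors measure the spread between these samples, which may be technical.

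Protein disulfide isomerases are ER enzymes built from thioredoxin domains, and they make, break and rearrange the disulfide bonds of proteins on their way to the cell surface or the matrix. Ero1 oxidases take electrons from the isomerases and so keep them able to form new bonds. Smooth muscle cells of the aorta secrete large amounts of collagen and elastic fibre proteins, and P4hb is in addition a subunit of the enzyme that hydroxylates collagen prolines.

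MoR-21 is a small RNA cut from the precursor of miR-21, from the bases just before the mature miR. The sequence of the mimetic itself was not used here. RefSeq gives the hairpin, and the bases before miR-21a-5p are shown with the mature miR because they hold the core that the study placed in moR-21. Both lie on the minus strand of the mouse assembly GRCm38.p6, at chr11:86584142-86584158 and chr11:86584120-86584141. In the first, capitals mark GUACC, which all of the leading candidate seeds share, and in the second they mark the seed, bases 2 to 8 of the miR.
hairpin before miR-21a-5p: uGUACCaccuugucgga
miR-21a-5p: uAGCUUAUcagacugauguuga
GUACC occurs 0 times in miR-21a-5p, so the mature miR does not carry this core.

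All arrays were alike in brightness and in the number of probes detected. Their median intensity was between 102.5 and 109.2, and each array had between 10285 and 10512 detected probes, those with a detection p-value under 0.01. The paired arrays of 1 sample differed by a median of 0.06 on the log2 scale over detected probes, in control sample 1 and in moR-21 sample 3 alike. That was about as much as separate samples differed, with medians of 0.06 between control samples 2 and 3 and 0.07 between moR-21 samples 1 and 2. One label field calls the cells AoECs and the others call them smooth muscle cells. Of 10 smooth muscle markers 7 were detected, with Acta2 bright and Myh11, Cnn1 and Myocd not detected, and Tagln passed on 4 of the 8 arrays. Of 10 endothelial markers 2 were detected, Flt1 and Vwf, while Pecam1, Cdh5, Kdr, Tek, Tie1, Emcn, Esam and Icam2 were not. Of 10 leukocyte markers 3 were detected (Csf1r, Cd14 and Lyz2), and Ptprc, Cd68, Emr1 and Itgam were not.

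Some markers of other cells moved with the treatment. Of the 8 detected markers of fibroblasts and adventitia, limma called Ly6a (log2 fold change −1.24) and Lum (−0.56) lower and Thy1 (0.53) higher. The summed normalized intensity of that list was between 16230 and 16840 in control samples and between 13390 and 14440 in moR-21 samples. The brightest marker in it, Dcn, was lower but not called (−0.22). So were Pi16 (−0.29), Mfap5 (−0.28), Pdgfra (−0.17) and Col14a1 (−0.04), and the median of that list was −0.25. Of the 3 detected mesothelial markers Upk3b was lower (−1.24), and the sum went from between 878.7 and 888.6 to between 512.9 and 528.2, while Msln, Krt8 and Krt18 were not detected. The smooth muscle sum went from between 10640 and 11020 to between 13440 and 14320, and most of it was the bright Acta2 (0.40, called higher). The other 6 detected smooth muscle markers were not called. They were Des (−0.38), Smtn (−0.05), Tpm2 (0.04), Lmod1 (0.05), Tagln (0.20) and Mylk (0.24), and the median of the list was 0.05. The endothelial sum was between 426.3 and 454.9 in control samples and between 426.3 and 454.3 in moR-21 samples. Lyz2 was called higher (0.58), and the brighter Cd14 was lower but not called (−0.27). The leukocyte sum was between 1826 and 1886 in control samples and between 1742 and 1821 in moR-21 samples. The part of these shifts in the values that follow was not tested. In RNA from whole cultures, fewer cells of a type and less RNA per cell cannot be told apart.

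Txndc5 encodes ERp46, an isomerase with several active thioredoxin domains, and lies on chromosome 13 at chr13:38500266-38528824 in GRCm38.p6. Its probe was far above background on every array. The quantile-normalized log2 signal was 10.74 in control sample 1, 10.68 in control sample 2 and 10.68 in control sample 3. In moR-21 samples 1, 2 and 3 it was 8.63, 8.61 and 8.80. The control samples thus lay within 0.1 of each other and every moR-21 sample lay about 2 units below them. The means were 10.70 ± 0.036 (SD, n = 3) and 8.68 ± 0.101 (SD, n = 3), a log2 fold change of −2.02 (limma standard error 0.055). The Txndc5 probe signal in moR-21 treated cells was therefore 24.6% of its control level, a 4.06-fold difference. No background was subtracted here, and after background correction (neqc) the log2 fold change was −2.27.

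The same difference was plain before any normalization. The deposited intensity of the Txndc5 probe was 1725 and 1956 on control arrays 1A and 1B, 1495 in control sample 2 and 1604 in control sample 3. It was 409.6 in moR-21 sample 1, 375.3 in moR-21 sample 2, and 454.2 and 427.8 on moR-21 arrays 3A and 3B. Even the lowest of these was well above the array medians, so Txndc5 mRNA was reduced but still measured in treated cells. The repeat arrays differed from their partners by 0.03 (control sample 1) and 0.02 (moR-21 sample 3) on the normalized log2 scale.

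**Figure D1:**
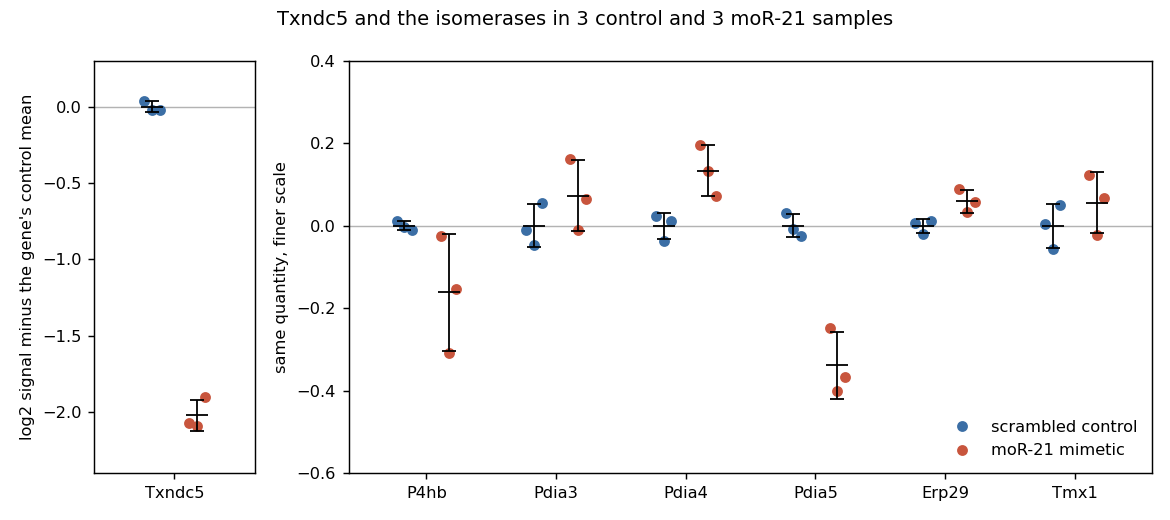
Normalized log2 signal of the 7 measured genes in each sample, with each gene's control mean set to 0 (vertical axis, log2 units, finer scale on the right). Points are samples (blue control, red moR-21; paired arrays averaged) and bars are mean ± SD of 3 samples. Txndc5 lies about 2 units lower in moR-21 samples, Pdia5 0.34 lower, and the other 5 genes differ by at most 0.16.

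Beside Txndc5, the isomerase with the clearest difference was Pdia5, which encodes PDIR and lies at chr16:35397308-35490919. Its brightest probe gave log2 signals of 7.91, 7.87 and 7.85 in control samples 1, 2 and 3. In moR-21 samples 1, 2 and 3 the signals were 7.63, 7.48 and 7.51. The groups did not overlap, and the means were 7.88 ± 0.028 and 7.54 ± 0.081 (SD, n = 3 each). The log2 fold change of −0.34 (limma standard error 0.051) leaves 79.1% of the control signal, just short of the fold change of 1.3, a log2 value of 0.38. Pdia5 was called lower after background correction, with log2 fold changes of −0.52 (normexp, offset 16), −0.42 (normexp, offset 50) and −0.56 (neqc), and also without moR-21 sample 1 (−0.38). A dimmer probe of Pdia5 was detected on all 8 arrays with a smaller difference, −0.07 (limma standard error 0.045), and the mean over both probes was −0.20. The dimmer probe lay close to background, with means of 6.95 ± 0.030 in control and 6.88 ± 0.017 in moR-21 samples (SD, n = 3 each). The remaining Pdia5 probe was not above background on any array.

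P4hb, protein disulfide isomerase itself, lies at chr11:120560298-120573253. Its log2 signal was 12.83, 12.81 and 12.81 in control samples 1, 2 and 3, and 12.79, 12.51 and 12.66 in moR-21 samples 1, 2 and 3. The control samples were almost identical, while the moR-21 samples were spread much more widely, and the highest of them lay just under the lowest control sample. The means were 12.82 ± 0.011 and 12.65 ± 0.142 (SD, n = 3 each), a log2 fold change of −0.16 (limma standard error 0.062). Without moR-21 sample 2 it was −0.09, and without moR-21 sample 1 it was −0.23. The size of the P4hb difference thus rested on single samples, and it was not called in either case.

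Pdia4 encodes ERp72, an isomerase found in complexes with the chaperone BiP. Its log2 signal was 8.68, 8.62 and 8.67 in control samples 1, 2 and 3, and 8.85, 8.79 and 8.73 in moR-21 samples 1, 2 and 3. Here the moR-21 samples were the higher ones, without overlap. The log2 fold change was 0.13 (limma standard error 0.048), or 109.7% of the control signal. It was called higher only when the fold-change cutoff was dropped and an adjusted p under 0.05 sufficed.

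Pdia3 encodes ERp57, which works with calnexin and calreticulin on glycoproteins. It gave 10.81, 10.77 and 10.87 in control samples 1, 2 and 3 and 10.98, 10.81 and 10.88 in moR-21 samples 1, 2 and 3. The groups overlapped, and the log2 fold change was 0.07 (limma standard error 0.053). Erp29 is a relative with a thioredoxin fold that lacks the active-site cysteine pair. Its values were 11.45, 11.43 and 11.46 against 11.54, 11.48 and 11.51, slightly higher in all moR-21 samples, with a log2 fold change of 0.06 (limma standard error 0.044). Tmx1, a membrane-bound isomerase read from the Txndc1 probe, was dim. It gave 7.09, 7.03 and 7.13 in control and 7.21, 7.06 and 7.15 in moR-21 samples, with overlap and a log2 fold change of 0.06 (limma standard error 0.052).

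Pdia6 (P5, another partner of BiP) and Ero1l (Ero1a, the oxidase that recharges the isomerases) could not be compared. Their probes had detection p-values under 0.01 on 0 of the 8 arrays, and the deposited intensities were between 100.5 and 114.2 for Pdia6 and between 93.00 and 99.97 for Ero1l, close to the array medians. A probe that is not above background does not show that its transcript is absent or low. Probes of other ER genes that cells usually express strongly, Hspa5 (BiP) and Canx (calnexin), were not above background either.

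Of the 7 measured genes, 3 were lower and 4 higher in moR-21 treated cells, with a median log2 fold change of 0.06, against 0.01 over all 8727 genes. The limma fit called 1 of them lower, Txndc5, and 0 higher, where it called 4.38% of all genes lower and 3.41% higher. A call needed a fold change over 1.3 and a Benjamini-Hochberg adjusted p under 0.002 over all detected probes. With no fold-change cutoff and an adjusted p under 0.05 it also called Pdia5 lower and Pdia4 higher. In 5 of the 7 genes the groups did not overlap, in 3 with moR-21 samples lower and in 2 with them higher. The moR-21 samples all lay under the control samples in 21.9% of all genes and over them in 24.4%. As the genes were chosen on this contrast, nothing is read from these shares.

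**Figure D2:**
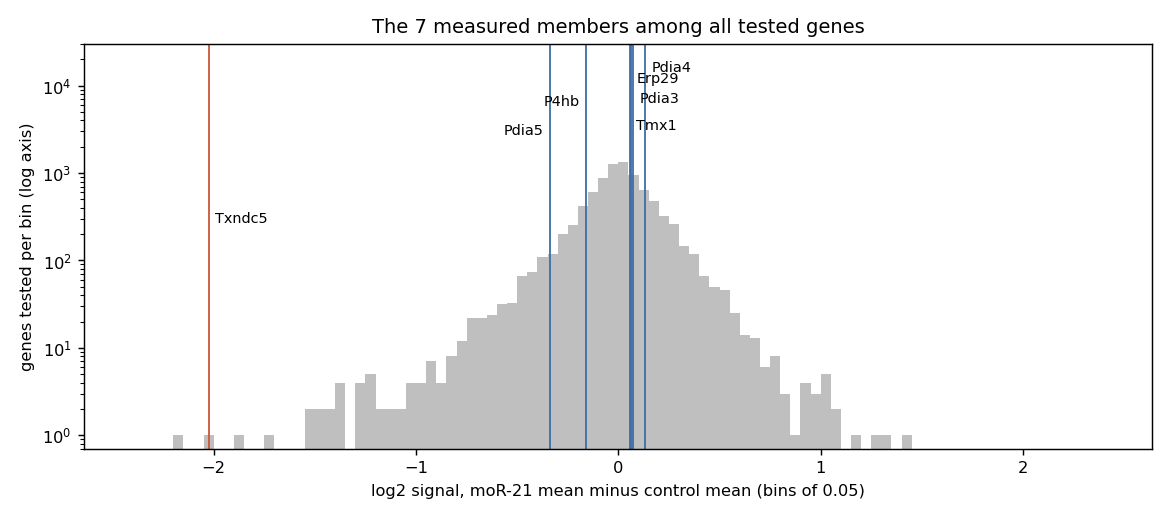
Number of tested genes (vertical log axis) by log2 fold change, moR-21 minus control (horizontal axis, bins of 0.05), with a line for each of the 7 measured genes. Txndc5 (red, called) stands at −2.02 in the far left tail, and the blue lines, none of them called, run from −0.34 (Pdia5) to 0.13 (Pdia4). Pdia5 lies near the 5th percentile of all genes (−0.35).

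Counted from the lowest log2 fold change among 8727 genes, Txndc5 had rank 2, Pdia5 rank 474 and P4hb rank 1314. Tmx1, Erp29, Pdia3 and Pdia4 had ranks 5676, 5780, 6019 and 6965. The 5th and 95th percentiles of all genes were −0.35 and 0.32, so that Pdia5 stood near the lower edge of that range and Txndc5 far outside it.

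Txndc5, chosen for its fall on these arrays, was called lower under every one of 19 alternatives in processing and samples. All of these used the same arrays, so they show only how far the value depends on the processing and on single samples. The log2 fold change of Txndc5 was between −2.27 (neqc background correction) and −1.99 (without moR-21 sample 2). The corresponding ranges were −0.23 to −0.09 for P4hb, 0.03 to 0.11 for Pdia3, 0.10 to 0.17 for Pdia4, 0.04 to 0.08 for Erp29 and 0.02 to 0.14 for Tmx1. None of the 7 genes changed direction under these alternatives. The small values of Pdia3 and Tmx1 moved with single samples, to 0.03 and 0.02 without moR-21 sample 1 and to 0.11 and 0.10 without moR-21 sample 2, and that of Tmx1 was 0.03 without control sample 2.

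**Figure D3:**
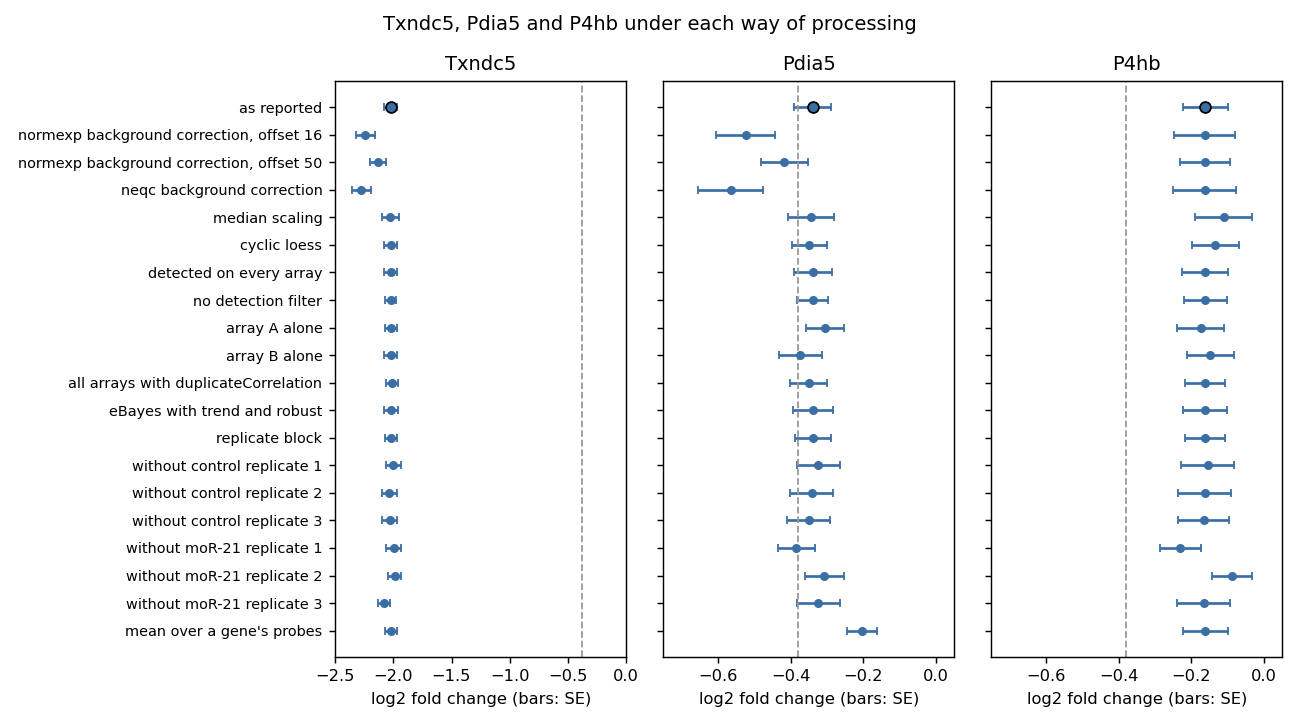
Log2 fold change of Txndc5, Pdia5 and P4hb (horizontal axes, with limma standard errors) as reported and under 19 alternatives (rows); dashed lines mark a fold change of 1.3 (log2 −0.38). Txndc5 stays between −2.27 and −1.99, Pdia5 crosses the dashed line after background correction and without moR-21 sample 1, and P4hb stays above it.

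Genes nearest to Txndc5 over the 6 samples were found by the distance between profiles after each was centred on its mean. The profiles were not scaled, so this distance mostly reflects how near a gene's log2 fold change is to that of Txndc5. As Txndc5 was chosen on its fall, the search returns strongly lowered genes, and nothing further is read from it. The nearest were Hp (haptoglobin, distance 0.28 log2 units), Saa3 (serum amyloid A 3, 0.29), Nptn (neuroplastin, 0.39), Twsg1 (a binding protein of BMPs, 0.61) and Acot1 (an acyl-CoA thioesterase, 0.65). Their log2 fold changes were −1.85, −2.16, −1.72, −1.55 and −1.50. Pearson's r with Txndc5 was between 0.996 and 0.998, which describes 6 samples in separate groups and was not tested. The other isomerase genes examined here were left out of this search, so their absence from it carries no meaning.

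The 9 genes lie on 8 chromosomes and so share no locus. Genes of this family are often switched on by ER stress through a promoter element called ERSE, CCAAT and CCACG with 9 bases between them. Promoters from 250 bases before to 50 after the start site were in the RefSeq table (GRCm38.p6) for 8 of the 9 genes. The element, searched on both strands, was in 0.119% of all 32851 promoters and in that of 1 gene here, Pdia6, at chr12:17266491-17266509 on the plus strand. It is printed as the single match, with its fixed parts in capitals.
Pdia6 ERSE: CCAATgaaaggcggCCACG
The ERSE-II element, ATTGG and CCACG with 1 base between them, was in 0.0365% of promoters and in 0 of these genes. A match describes the letters only, and Pdia6 was not measured above background here.

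Genes that work beside the isomerases were read from 6 lists written by function, 80 genes in all. The lists were written with earlier results of these data known. The shares called are therefore a description and no test of the lists. The array had probes for 69 of them, and 45 were detected. The limma fit called 9 of the 45 lower and 2 higher in moR-21 treated cells, against 4.38% and 3.41% of all genes, and their median log2 fold change was −0.04 against 0.01. The genes called lower were Tmx4, Txndc12, Gpx8, Plod2, Leprel4, Serpinh1, Gcs1, Prkcsh and Txndc15, and those called higher were Sels and Plod1. Of these 11 calls, 7 held with each of the 6 samples left out in turn. The count fell to 7 without control sample 3, and the calls lost by leaving out 1 sample or another were those of Txndc12, Plod1, Serpinh1 and Gcs1.

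Of 15 other ER genes with a thioredoxin fold, 12 were on the array and 5 detected, of which 4 were lower and 1 higher (median log2 fold change −0.13). Tmx4, a membrane-bound relative of Tmx1 read under its older symbol Txndc13, was 9.69, 9.60 and 9.64 in control samples 1, 2 and 3 and 8.84, 8.70 and 8.93 in moR-21 samples 1, 2 and 3. No moR-21 sample came near a control sample, and Tmx4 fell 1.77-fold (log2 fold change −0.82, limma adjusted p = 1.51e-07), with −0.71 at its other probe. Txndc12, a small ER thioredoxin also called ERp19, fell by a bare margin (log2 fold change −0.39, limma adjusted p = 0.00199). Its control samples were spread from 7.64 to 7.99, and its call was lost without control sample 1 (−0.35) or 3 (−0.33), and without moR-21 sample 1 (−0.33), 2 (−0.40) or 3 (−0.44). Dnajc10 (−0.13, limma adjusted p = 0.152), an ER reductase, and Txndc11 (−0.12, limma adjusted p = 0.0610) did not pass. The Dnajc10 value was −0.06 without moR-21 sample 2 and −0.20 without moR-21 sample 1. Another detected probe gave −0.001 for Dnajc10 and −0.02 for Txndc11.

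**Figure D4:**
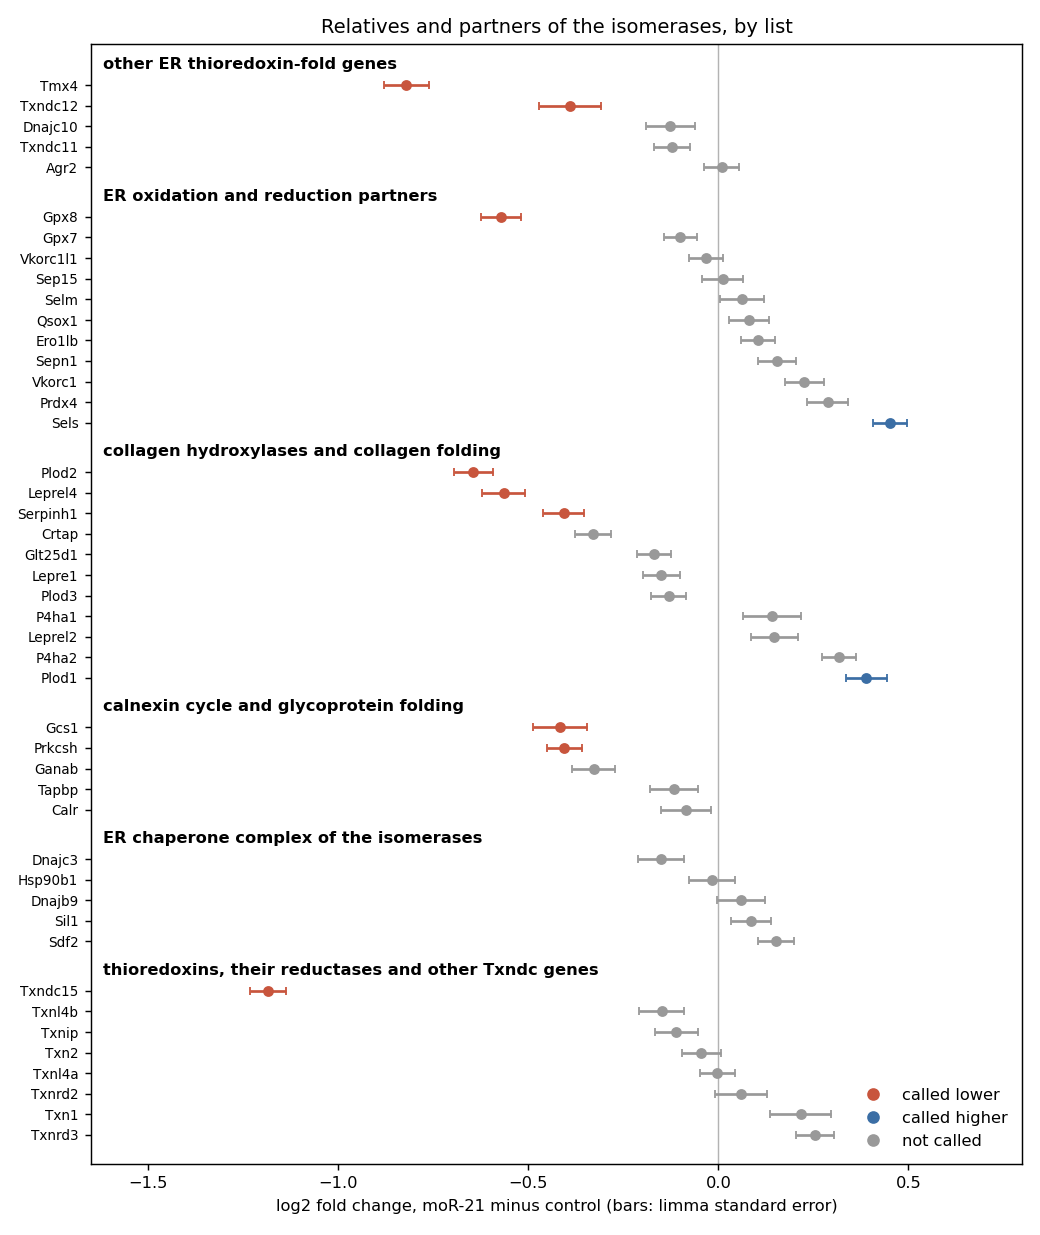
Log2 fold change, moR-21 minus control, with limma standard errors (horizontal axis), of the 45 detected genes of 6 lists, ordered within each list. Red and blue mark the 9 genes called lower and the 2 called higher; Txndc15 (−1.19) and Tmx4 (−0.82) lie farthest to the left and Sels (0.45) farthest to the right.

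Among the partners in ER oxidation and reduction, 11 of 13 genes were detected, 3 lower and 8 higher (median 0.08). Gpx8, an ER peroxidase that uses up the hydrogen peroxide made by Ero1, was 10.92, 10.88 and 10.95 in control samples 1, 2 and 3 and 10.30, 10.45 and 10.28 in moR-21 samples 1, 2 and 3. The groups were well apart, and Gpx8 fell 1.49-fold (log2 fold change −0.57, limma adjusted p = 1.70e-06), with −0.61 at its other probe. Sels, a selenoprotein of the ER membrane listed on the array as H47, rose 1.37-fold (log2 fold change 0.45, limma adjusted p = 3.44e-06), and its other probe was not called (0.33). Prdx4, a peroxiredoxin that also passes oxidation on to the isomerases, reached 0.29 on the log2 scale (limma adjusted p = 8.27e-04) and so stayed below the required fold. Vkorc1, the vitamin K epoxide reductase, had 0.23 (limma adjusted p = 0.00399). Ero1lb, the Ero1 paralog of Ero1l, was detected but not called, at 0.10.

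Collagen is the substrate of the prolyl hydroxylase of which P4hb is a subunit, and 11 of 14 genes of collagen hydroxylation and folding were detected, 7 lower and 4 higher (median −0.15). Plod2, which hydroxylates lysines of collagen telopeptides, was 9.65, 9.67 and 9.66 in control samples 1, 2 and 3 and between 8.95 and 9.11 in the moR-21 samples. It fell 1.56-fold (log2 fold change −0.64, limma adjusted p = 3.70e-07). Its family member Plod1 rose (0.39, limma adjusted p = 7.41e-05), a call lost without control sample 3 (0.36), moR-21 sample 1 (0.37) or moR-21 sample 2 (0.36). Leprel4, an ER protein related to the prolyl 3-hydroxylases and listed as 1110036O03Rik, fell 1.48-fold (−0.56, limma adjusted p = 3.44e-06). Serpinh1 (HSP47), the collagen-specific chaperone, fell 1.33-fold (−0.41, limma adjusted p = 4.98e-05), and lost its call without control sample 3 (−0.38) or moR-21 sample 3 (−0.37).

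Neither detected catalytic partner of P4hb was called. P4ha2, an alpha subunit of collagen prolyl 4-hydroxylase, reached 0.32 on the log2 scale (limma adjusted p = 8.07e-05), short of the fold-change cutoff, with all moR-21 samples above all control samples. P4ha1, the other detected alpha subunit, had 0.14 (limma adjusted p = 0.174) with overlapping groups. Crtap, the partner of prolyl 3-hydroxylase, had −0.33 (limma adjusted p = 8.44e-05), also short of the cutoff, and −0.20 at its other probe.

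In the calnexin cycle, in which Pdia3 takes part, 5 of 11 genes were detected and all 5 were lower (median −0.33). Prkcsh, the beta subunit of glucosidase II, fell 1.32-fold (log2 fold change −0.41, limma adjusted p = 1.22e-05), and its catalytic partner Ganab had −0.33 (limma adjusted p = 4.42e-04), too small a fold for a call. Prkcsh was 11.25, 11.28 and 11.21 in control samples 1, 2 and 3 and 10.88, 10.81 and 10.83 in moR-21 samples 1, 2 and 3, and it lost its call with neqc background correction (−0.42). Gcs1, glucosidase I, fell 1.33-fold (−0.42, limma adjusted p = 4.43e-04). That call was lost without control sample 2 (−0.40) or 3 (−0.37) and without moR-21 sample 1 (−0.37) or 2 (−0.38). Tapbp (−0.12, limma adjusted p = 0.175), which pairs with Pdia3 in peptide loading, and Calr (−0.09, limma adjusted p = 0.371) did not pass. The Tapbp value was −0.07 without control sample 1 or moR-21 sample 3 and −0.19 without control sample 3. The other Tapbp probe gave −0.008, the other probes of Ganab were between −0.32 and −0.16, and the groups overlapped in Tapbp and Calr.

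Of 10 genes for chaperones that act with the isomerases, 7 were on the array and 5 were detected, with a median of 0.06 and limma calls for 0 of them. Without adjustment, 1 lower and 1 higher gene had p under 0.05 in limma. Dnajc3, a co-chaperone of BiP, had −0.15 (limma adjusted p = 0.0740), a value that rested on moR-21 sample 2, without which it was −0.08 (limma adjusted p = 0.312). Sdf2 had 0.15 (limma adjusted p = 0.0231). Hsp90b1, the ER member of the Hsp90 family, had −0.02 (limma adjusted p = 0.874) with overlapping groups.

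The last list held thioredoxins, their reductases and other genes named for a thioredoxin domain, 8 of 17 detected, 5 lower and 3 higher (median −0.02). Txndc15, a membrane protein with a thioredoxin domain, was 11.66, 11.58 and 11.64 in control samples 1, 2 and 3 and 10.49, 10.42 and 10.41 in moR-21 samples 1, 2 and 3. It fell 2.27-fold (log2 fold change −1.19, limma adjusted p = 4.97e-10). Txnrd3, a thioredoxin reductase, had 0.25 (limma adjusted p = 0.00135) and was called only after normexp with an offset of 16 (0.61) and without a fold-change cutoff. Txn1, cytosolic thioredoxin, had 0.22 (limma adjusted p = 0.0505), and 0.12 without control sample 2 (limma adjusted p = 0.243).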

How the data were processed

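The authors deposited a table of non-normalized probe intensity values with a detection p-value for each probe and array, and per the file headers no normalization. Background correction is not stated, and the sources name a pair of Illumina array designs. The table assigned every column to a sample, and 0 columns were left over. Symbols were used as given, with older symbols matched through RefSeq (GRCm38.p6). All 8 arrays were quantile normalized, log2 transformed and averaged per sample. limma compared 3 moR-21 with 3 control samples, without covariates, over the 11651 probes that passed a detection p-value of 0.01 on any array, with Benjamini-Hochberg adjustment. The brightest detected probe stood for its gene. In a simulated comparison over 11651 probes, 98.0% of 200 probes changed 2-fold were recovered with 0 false calls. All called partner genes but Txndc15 changed less than 2-fold, and the simulation does not show how well such smaller changes are called.

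The genes and lists were chosen with earlier results of these data known, and symbols for Erp27, Selm, Leprel4 and Sep15 were matched after the table had been opened. Named are all 9 genes, every called gene and the 2 largest uncalled differences of each list, and the 5 other genes nearest to Txndc5. Hsp90b1, P4ha1, Calr, Ero1lb, the undetected Hspa5 and Canx, and the markers were named beyond that rule, after their values were seen. Alternatives were other background corrections, scalings, detection filters, arrays, variance models, cutoffs and probes, a replicate block, and each sample left out. Slides were not tested as a batch because the table names none. The number of arrays limits the precision. Software was R 4.3.3, limma 3.58.1, Python 3.11.15, pandas 2.3.3 and matplotlib 3.10.9.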

Additional observations from a re-analysis of the deposited data

How the results depend on the processing

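Among the isomerase genes the number called was 1 and became 2 with normexp (either offset) and with neqc, which added Pdia5, and 3 with an adjusted p under 0.05 and no fold-change cutoff. With each sample left out in turn it was between 1 and 2. Of the genes that work beside them 11 were called, 3 with a fold-change cutoff of 1.5 and 22 with an adjusted p under 0.05 and no fold-change cutoff, and between 7 and 10 with each sample left out. Over all probes 811 were called, 260 with the cutoff of 1.5 and 3943 with no fold-change cutoff. These counts move by construction of the cutoff, while the cause of the change with background correction was not tested. None of the 7 measured isomerase genes, the 11 called partner genes or the largest uncalled ones changed direction under these alternatives. Of 22 alternatives, the call of Txndc12 was lost in 12, that of Gcs1 in 10 and that of Plod1 in 6, while those of Tmx4, Plod2 and Txndc15 held in all 22.

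Samples of the 2 treatments share replicate numbers. Their deviations from the group means correlated by 0.187, 0.0441 and 0.0597 for numbers 1, 2 and 3. Numbers 1 and 2 matched their own number best, and number 3 did not. These values do not settle whether the samples were paired. With the replicate number as a block, the counts were 1 isomerase gene, 11 partner genes and 815 probes, so the block changed no count by more than 1.5 times. The probe of Tmx1 (mean log2 signal 7.08 in control samples) and the dimmer one of Pdia5 lay close to background, which limits what they can show. The same limit holds for Plod1 (7.09), Txndc11 (6.89), Txnrd3 (6.86) and Ero1lb (6.83). With neqc background correction the log2 fold change of Plod1 was 0.83.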
